A study of Mus musculus with 15 samples.

Results

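Green thalamic cells, sorted for EGFP made from the Gbx2 locus, were compared between embryonic day 18.5 (E18.5) and E14.5 in 6 mouse arrays, 3 biological replicates of each stage. They were chosen by their sample titles, and they are 6 of the 15 arrays of the study, which also held red cells of both stages and double-labelled cells of E18.5. All embryos were of the genotype Gbx2CreER-IRES-EGFP/+::R26lsl-tdTomato/+ on a c57/BL6 background, so both stages carried the same alleles and were heterozygous at the Gbx2 locus. EGFP and a tamoxifen-inducible Cre were made from the Gbx2 locus, and tdTomato from Rosa26 after Cre had acted. Mothers of the E18.5 embryos had received 4 mg tamoxifen at E9, and those of the E14.5 embryos 4 mg at E9.5. The day of tamoxifen and the stage therefore cannot be told apart. The sorting gates are not given in the sources used here, nor whether green cells at E14.5 included cells that also carried tdTomato. In sorted populations of this kind a change in the mix of cells and a change in RNA per cell cannot be told apart.

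Gbx2 encodes a homeodomain factor that newborn neurons of the thalamus switch on as they leave the progenitor zone, and that is needed for their identity and for the growth of their axons to the cortex. Thalamic neurons are mostly glutamatergic and relay sensory and motor signals to the cortex. Around the earlier stage progenitors still divide and young neurons settle into nuclei, while around the later stage their axons have reached the cortex and synapses, receptors and channels are being assembled.

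Levels are log2 signals after quantile normalization of all 15 arrays together, with no depth behind them. The number of arrays limits their precision. As deposited, the mean of all values was 6.18 in each green E18.5 array and 5.64 in each green E14.5 array, and the median gene tested was 0.60 higher at E18.5. After quantile normalization that median was -0.03, and all changes below are relative to it. Any difference between stages in total RNA or in array processing is thus removed or cannot be told apart from stage. The 3 arrays of a stage correlated at 0.981 to 0.986 at E18.5 and at 0.990 to 0.991 at E14.5. The E14.5 replicate 1 array stood nearer to the later stage than its mates: it was the highest of the 3 for 57.0% of the genes at least 2-fold higher at E18.5, and the lowest for 56.9% of those at least 2-fold lower. Xist stood at 5.08 in E14.5 replicate 2 and between 9.45 and 10.78 in the other 5 arrays, while the Y-linked Kdm5d was at 7.94 in that array and between 6.21 and 7.0 in the others. The part of either array in the results was not tested. The number of genes passing was 4624 without E14.5 replicate 1 and 4305 without E14.5 replicate 2, against 5643 with all arrays. Leaving out any other single green array gave between 4383 and 4685, so these counts do not set either array apart.

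Between E14.5 and E18.5 the green cells gained the signal of synapse, receptor, channel and adhesion genes. They lost that of progenitor, cell division and early neurogenic genes. Tcf7l2, Lhx9 and Slc17a6, which mark thalamic neurons, remained among the highest signals. Of other thalamic markers Gbx2 did not pass, Lhx2 fell from 9.18 to 8.29 and Rora stood at 6.65 at both stages. By limma, 5643 of 16635 genes, or 33.9%, passed an adjusted p of 0.05, and 7211, or 43.3%, had an unadjusted p under 0.05. Of all genes tested 15.6% (2591) were higher at E18.5 and 18.3% (3052) were lower. These shares are the background for the count of each list below. At least 2-fold higher were 676 genes (4.06%) and at least 2-fold lower 425 (2.55%). The 2 groups of arrays did not overlap for 60.0% of all genes. Of 786 genes in the 36 lists used below 693 were tested, 34 fell under the filter on low signals, 57 had no transcript cluster of their own in the annotation used here, and 2 were second names of listed genes. Of the calls 45.9% were higher at E18.5 after quantile normalization and 46.9% after centring each array on its median, against 96.6% of 12188 calls on the values as deposited.

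**Figure D1:**
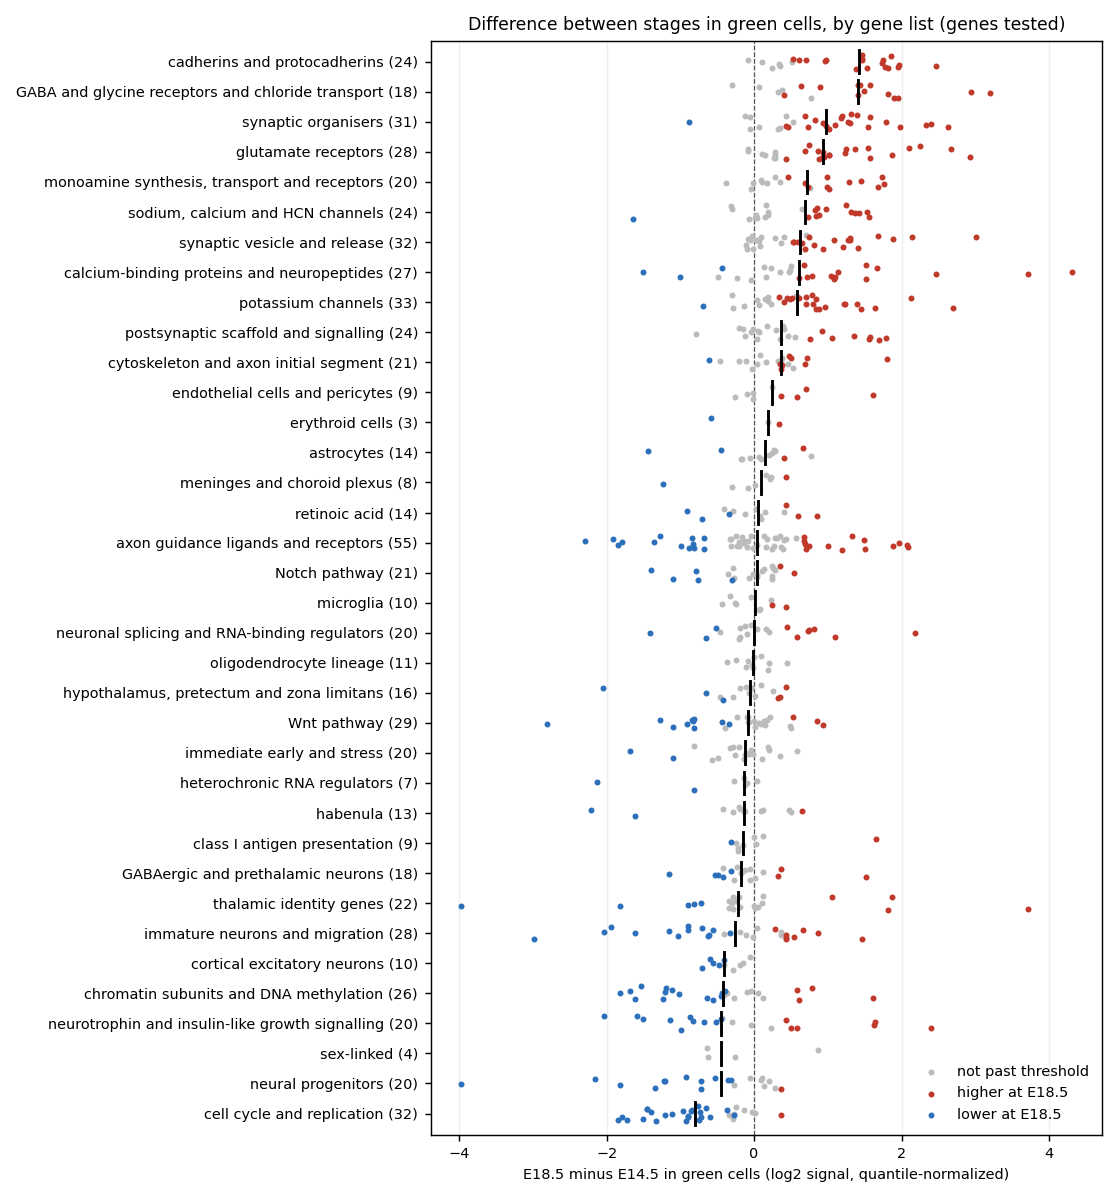
Each point is a gene, placed by its difference between E18.5 and E14.5 green cells (log2 signal), in rows of gene lists ordered by their median (black bar); the number of genes tested stands in parentheses. Cadherins and protocadherins (median 1.42) lie at the top and cell cycle genes (median -0.80) at the bottom, with red and blue points for genes past the threshold.

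The sorted cells carried markers of thalamic neurons at both stages, of which Lhx2 was lower at E18.5. Tcf7l2, a factor of Wnt signalling that marks the thalamus, stood at 11.85, 11.93 and 11.72 at E14.5 and at 11.90, 11.81 and 11.80 at E18.5, among the highest levels on the arrays. Its difference was 0.00, with a 95% interval of -0.22 to 0.23. Gbx2 itself, on whose locus the sort rests, stood at 8.22, 8.52 and 8.45 at E14.5 and at 8.21, 8.16 and 7.90 at E18.5. The groups did not overlap, but the difference of -0.31 (interval -0.91 to 0.30, adjusted p 0.44) did not pass. A second cluster of Gbx2 had a difference of -0.40. In red cells Gbx2 stood at 7.69 ± 0.07 and 6.09 ± 0.84. The interval rests on the spread within all 5 groups of arrays. The standard deviation was 0.16 in each green group, so the red E18.5 arrays widen it. The LIM-homeodomain factor Lhx9 (10.20 ± 0.12 against 9.86 ± 0.14, n = 3) and the vesicular glutamate transporter Slc17a6 (10.28 ± 0.19 against 10.20 ± 0.14) did not pass, with differences of -0.34 (interval -0.64 to -0.04) and -0.08 (interval -0.50 to 0.34).

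Of 23 genes listed for thalamic identity 22 were tested, 4 of which rose and 5 fell, against 15.6% and 18.3% of all genes. Their median was -0.22 (0.38 as deposited). Prox1, a homeodomain factor of postmitotic thalamic neurons, rose from 8.65, 7.90 and 8.18 to 10.17, 10.21 and 9.96, a 3.65-fold difference (adjusted p 1.4e-05). The nuclear receptor Rorb, which marks sensory relay nuclei, rose by 1.06, and the cadherin Cdh6 by 1.82. The rise of Calb2 is described below. Falling were Olig3 and Neurog2, which belong to progenitors as well, the LIM-homeodomain factor Lhx2 (-0.89), the Wnt effector Lef1 (-0.82) and Sox2 (-0.72), which stood at 10.51 ± 0.15 and 9.79 ± 0.22. The forkhead factor Foxp2 (0.05) and the nuclear receptor Rora (0.01) did not pass. On the values as deposited the falls of Lhx2, Lef1 and Sox2 shrank to -0.25, -0.16 and -0.07, and that of Lhx2 did not pass without E14.5 replicate 3 (adjusted p 0.051).

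Many, but not all, markers of other cell types stood in the lower part of the array range at both stages. The 7 lists covered cortical neurons, astrocytes, microglia, the oligodendrocyte lineage, blood cells, blood vessels, and the meninges with the choroid plexus. Of their 98 members 65 were tested. Of these 10 were higher at E18.5 and 9 lower, against 15.6% and 18.3% of all genes. Of 10 cortical genes tested 5 were lower, among them Emx2 (-0.60) and Eomes (-0.47), and 0 were higher by limma. As deposited 2 of the cortical genes were higher and 0 lower. Aqp4 and Gfap of astrocytes, Pdgfra and Sox10 of the oligodendrocyte lineage, Csf1r and Aif1 of microglia and Pecam1 and Cldn5 of endothelium had means between 4.88 and 5.54, in the lower part of the array range. Pdgfra and Cldn5 fell under the filter on low signals, and the other 6 did not pass. Others stood higher: Glul, glutamine synthetase of astrocytes, at 10.19 ± 0.13 and 10.59 ± 0.19 (called higher), the cortical Cux1 at 8.28 ± 0.06 and 7.88 ± 0.08 (called lower) and the glutamate transporter Slc1a2 at 8.51 ± 0.05 and 7.07 ± 0.14 (called lower). A second cluster of Glul had a difference of -0.14. Bcl11b of cortical neurons had means of 7.24 and 6.95, and the microglial Cx3cr1 of 6.50 and 6.57 and Cd68 of 6.41 and 6.08, and these 3 did not pass. Of 10 microglial genes tested C1qa (0.43) and Fcer1g (0.25) rose, Trem2 (-0.43) and P2ry12 (-0.26) were lower at an unadjusted p under 0.05 alone, and C1qb was at 0.08. No marker can be read as 0 on an array. Rgs5, a pericyte gene, rose from 4.70 ± 0.11 to 6.31 ± 0.50 (adjusted p 6.8e-04), with the pericyte potassium channel genes Abcc9 (0.71) and Kcnj8 (0.37) and the endothelial Cdh5 (0.58). A second cluster of Rgs5 had a difference of 0.46. The other 5 of the 9 vessel genes tested did not pass, with Kdr at -0.26 (unadjusted p 0.037), Pdgfrb at -0.10, Pecam1 at -0.02, Flt1 at -0.01 and Tie1 at 0.25. The summed linear signal of the 15 endothelial and pericyte genes lay between 475 and 480 at E14.5 and between 556 and 644 at E18.5. For astrocytes it lay between 1952 and 2119 and between 2071 and 2487, and for microglia between 596 and 625 and between 579 and 608. Their part in the results was not tested. The GABAergic markers Gad1 (5.12 ± 0.22 and 5.24 ± 0.41) and Gad2 (6.08 ± 0.07 and 6.10 ± 0.19) did not pass, while Slc32a1, the vesicular GABA transporter, rose from 5.27 ± 0.02 to 5.63 ± 0.23 (adjusted p 0.043), a call lost in 5 of the 6 fits without 1 green array (adjusted p up to 0.19). The rise of C1qa was lost without E14.5 replicate 2 (adjusted p 0.058), and that of Kcnj8 in 3 of the 6 fits (adjusted p up to 0.092), while those of Fcer1g and Glul were each lost in 4 of them (adjusted p up to 0.11 and 0.14).

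Most cell cycle genes tested fell. They encode the engines of DNA replication and mitosis. Many are switched on during the cycle through short promoter elements, such as the CCAAT box with the cell cycle homology region TTTGAA, or E2F sites. To show these letters in place, the RefSeq promoter windows (GRCm38.p6, 250 bases before to 50 after the start, 5′ to 3′ on the gene's strand) of the 3 cell cycle genes with the largest falls follow. Capitals mark matches of CCAAT on either strand. They also mark the element TTTGAA, and the E2F forms TTTCCCGC, TTTGGCGC, TTTCGCGC and TTTGCCGC, on either strand.
Mki67, chr7:135716330-135716629, minus strand: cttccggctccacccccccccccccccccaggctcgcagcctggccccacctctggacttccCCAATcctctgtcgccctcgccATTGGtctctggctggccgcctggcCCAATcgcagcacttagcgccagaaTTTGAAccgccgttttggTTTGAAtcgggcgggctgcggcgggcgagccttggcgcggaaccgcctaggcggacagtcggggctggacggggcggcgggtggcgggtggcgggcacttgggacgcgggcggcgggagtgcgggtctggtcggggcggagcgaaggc
Top2a, chr11:99024140-99024439, minus strand: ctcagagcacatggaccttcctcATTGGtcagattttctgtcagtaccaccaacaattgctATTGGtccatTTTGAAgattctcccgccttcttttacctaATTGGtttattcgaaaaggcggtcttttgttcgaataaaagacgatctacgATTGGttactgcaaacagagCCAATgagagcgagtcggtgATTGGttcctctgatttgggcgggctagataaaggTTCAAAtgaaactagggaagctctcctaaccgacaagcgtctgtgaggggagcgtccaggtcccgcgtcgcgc
Cdk1, chr10:69352863-69353162, minus strand: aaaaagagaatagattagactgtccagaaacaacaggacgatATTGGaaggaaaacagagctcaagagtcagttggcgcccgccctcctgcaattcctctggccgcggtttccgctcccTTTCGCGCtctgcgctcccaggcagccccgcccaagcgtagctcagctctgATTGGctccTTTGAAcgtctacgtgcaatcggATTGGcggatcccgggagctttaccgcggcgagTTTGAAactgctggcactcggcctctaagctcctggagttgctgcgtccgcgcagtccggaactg

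The Mki67 and Cdk1 windows held 3 CCAAT matches each and the Top2a window 6, and each of the 3 held 2 matches of TTTGAA. An E2F form was found in the Cdk1 window alone. Over the 22 windows of cell cycle genes that fell, 81.8% held CCAAT and 59.1% TTTGAA, against 36.9% and 12.6% of the 16132 windows of all genes tested. E2F forms were in 13.6% of the former and 3.38% of the latter. These 22 windows belong to 20 of the 24 genes that fell. Over the 32 windows of the whole list, 84.4% held CCAAT, 43.8% TTTGAA and 18.8% an E2F form, so CCAAT and E2F forms were no more frequent among the genes that fell than in the list. Of the 432 windows of all genes at least 2-fold lower at E18.5, 45.8% held CCAAT and 15.3% TTTGAA, and of the 697 windows of genes at least 2-fold higher 30.7% and 10.3%. A match of letters is a description and no sign that a factor binds there.

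Of 36 cell cycle and replication genes 32 were tested, of which 24 fell and 1 rose, against 18.3% and 15.6% of all genes, with a median of -0.80 (-0.19 as deposited). Mki67, the marker of cycling cells, stood at 6.69, 6.98 and 7.08 at E14.5 and at 5.11, 5.07 and 5.04 at E18.5, a 3.59-fold fall (adjusted p 2.2e-06). All E18.5 arrays were below all E14.5 arrays, and the later level lay near the bottom of the array range. The topoisomerase Top2a fell from 6.70, 7.21 and 7.20 to 5.14, 5.47 and 5.12 (3.47-fold, adjusted p 5.5e-06), and the mitotic kinase Cdk1 from 6.29, 6.72 and 6.59 to 4.80, 4.82 and 4.80 (3.31-fold, adjusted p 1.5e-07). The cyclins Ccnd2 (-1.51) and Ccnb2 (-1.46) and the kinetochore motor Cenpe (-1.45) fell as well. Replication factors did not all follow. Pcna stood at 8.77 ± 0.20 and 8.74 ± 0.07, and the helicase subunits Mcm6 (0.01) and Mcm2 (-0.13) did not pass. The G1 cyclin Ccne1 rose by 0.37, a call lost in 5 of the 6 fits without 1 green array (adjusted p up to 0.15).

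Among 20 progenitor genes tested of 21 listed, 12 fell and 1 rose, against 18.3% and 15.6% of all genes. Their median was -0.45 (0.15 as deposited). The largest fall over all named genes was that of Olig3, a helix-loop-helix factor of thalamic progenitors, which stood at 8.96, 9.44 and 9.29 at E14.5 and at 4.99, 5.57 and 5.21 at E18.5. That is a 15.7-fold difference (adjusted p 9.0e-09). Prom1, a membrane protein of ventricular cells, fell by 2.16, the SoxB1 factor Sox1 by 1.34 and the intermediate filament Nes by 1.23. The proneural factor Neurog2 fell 3.53-fold, from 9.03, 9.05 and 8.90 to 6.92, 7.14 and 7.46 (adjusted p 4.1e-06). Fabp7, a fatty acid binding protein of radial glia, fell from 9.40, 9.42 and 9.74 to 7.89, 9.10 and 7.94 (adjusted p 0.026), with E18.5 replicate 2 close to the earlier level, and its call was lost in 5 of the 6 fits without 1 green array (adjusted p up to 0.10). The glial factor Sox9 (0.10) and the Notch target Hes5 (0.11) did not pass. Of the 21 Notch pathway genes 5 fell and 2 rose (median 0.04), against 18.3% and 15.6% of all genes. Among those lower were the effector Rbpj (-1.40), the coactivator Maml1 (-1.09), the fringe enzyme Mfng (-0.80) and the ligand Jag1 (-0.77). Jag2 (0.54) was higher, a call lost in 4 of the 6 fits without 1 green array (adjusted p up to 0.073). A second cluster of Rbpj had a difference of -0.48.

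Of 28 tested genes of immature and migrating neurons 13 fell, 8 rose and 7 did not pass, with a median of -0.26 (0.32 as deposited). Of all genes 18.3% fell and 15.6% rose. Nhlh1, a helix-loop-helix factor that is on briefly as neurons leave the cell cycle, stood at 7.26, 8.11 and 7.90 at E14.5 and at 4.59, 4.83 and 4.89 at E18.5 (7.94-fold, adjusted p 1.5e-07). Its relative Nhlh2 fell by 1.62, the early B-cell factor Ebf1 by 1.94, Igfbpl1 by 2.04, the small GTPase Rnd3 by 1.15 and the neuronal Sox11 by 1.04. Rising were the beta-tubulin Tubb2a (1.46), the tubulin-binding Stmn2 (0.87), Mllt11 (0.67), the microtubule-associated Dcx (0.44) and the growth cone protein Gap43 (0.43). The calls of Dcx and Gap43 were lost in 5 of the 6 fits without 1 green array (adjusted p up to 0.15 and 0.13). The RNA-binding Elavl3 (0.03) and Elavl4 (-0.01) did not pass.

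Pou3f2, a POU-domain factor of young neurons, stood at 8.98, 9.22 and 9.12 at E14.5 and at 6.29, 6.59 and 6.77 at E18.5 (5.88-fold, adjusted p 5.4e-07). The non-coding Pantr1 fell from 9.75, 9.90 and 10.00 to 6.31, 6.28 and 6.33 (11.9-fold, adjusted p 2.1e-08). Both groups were tight and far apart. Barhl2, a BarH-like homeodomain factor of the diencephalon, fell by 2.06, the zinc finger factor Sp9 by 1.15 and the homeodomain factor Otx2 by 1.24. Among 13 habenula genes tested 2 fell and 1 rose, no larger a share than the 18.3% and 15.6% of all genes: Gng8, a G protein subunit, and Nhlh2 fell by 2.21 and 1.62, and the LIM-only factor Lmo3 rose by 0.65 (adjusted p 0.059 without E18.5 replicate 2). Among 18 GABAergic and prethalamic genes 5 fell and 3 rose, against the same shares of all genes, the largest rise being that of the neuropeptide Sst (1.52).

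**Figure D2:**
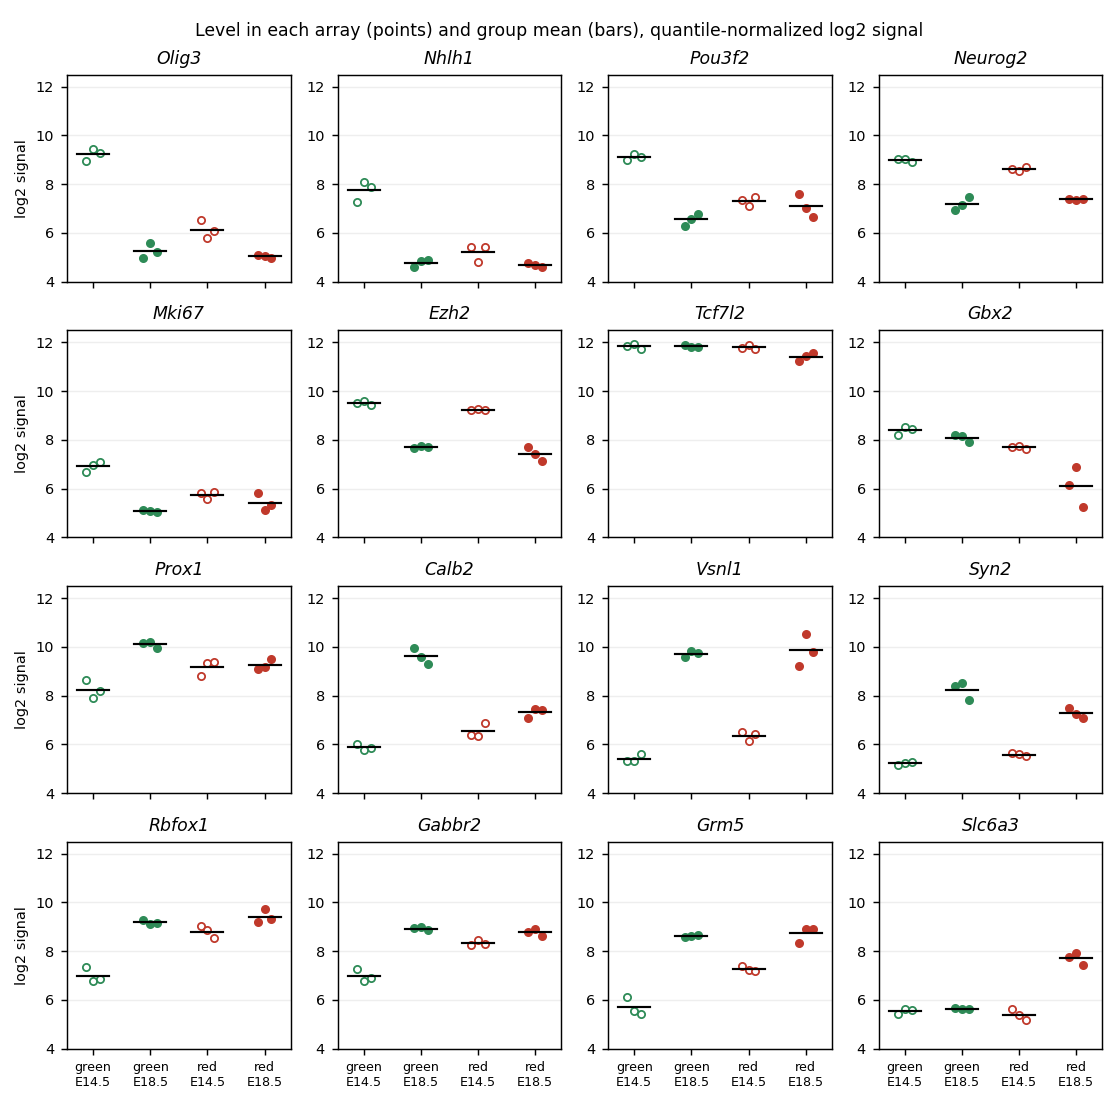
Quantile-normalized log2 signal of 16 genes in each array, with green E14.5 and E18.5 cells on the left and red cells of the same stages on the right of each panel; points are arrays and bars group means. Olig3, Nhlh1 and Pou3f2 fall in green cells, Tcf7l2 stays near 11.8, and Calb2, Vsnl1 and Syn2 rise.

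The remaining genes among the 15 largest falls were a mixed group. Tuba1c, an alpha-tubulin, fell from 10.39, 10.11 and 10.47 to 7.03, 5.71 and 6.46 (adjusted p 2.1e-04). Tubulin genes are near-identical, so its signal can include related transcripts, and Tuba1b stood at 11.96 ± 0.07 and 12.05 ± 0.09. The Wnt agonist Rspo3 fell by 2.80, the histone demethylase Kdm7a by 2.59, the junctional adhesion molecule Jam2 by 2.56, the actin-binding Cnn3 by 2.56 and the kinase Prkd1 by 2.46. Also falling were the histone reader Phf21b (-2.63), the peroxisomal transporter Abcd2 (-2.44), Thsd7a (-2.39), the glycerate kinase Glyctk (-2.34) and the axon repellent Slit2 (-2.30).

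The largest rise was that of Vsnl1, a neuronal calcium sensor, from 5.32, 5.32 and 5.59 at E14.5 to 9.60, 9.81 and 9.75 at E18.5. That is a 19.9-fold difference (adjusted p 5.6e-08), and it moved the gene from the lower part of the array range to its upper part. Calb2, which encodes the calcium-binding calretinin, rose from 6.02, 5.77 and 5.87 to 9.95, 9.58 and 9.27 (13.2-fold, adjusted p 1.4e-08). Necab1, another neuronal calcium-binding protein, rose from 6.48, 5.83 and 6.05 to 9.63, 9.65 and 9.37 (10.8-fold, adjusted p 9.4e-09). The list of calcium-binding proteins and neuropeptides had 14 genes higher and 3 lower of 27 tested, against 15.6% and 18.3% of all genes. Its median was 0.62. Calb1, which encodes calbindin, went the other way, from 9.70 ± 0.21 to 8.20 ± 0.30, and the granin Scg3 fell by 1.0. The granins and secreted peptides Scg2 (2.46), Vgf (1.66) and Nts (1.52) rose.

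Further large rises were those of Brinp3 (3.55), the annexin partner S100a10 (3.49), the membrane traffic protein Mal2 (3.43), the nuclear envelope protein Syne1 (3.30), the glycogen primer Gyg (3.25), the receptor-associated Kctd12 (3.08), Ndrg1 (3.04), Far2, which makes fatty alcohols (3.03), the actin-binding Ablim3 (3.00) and Astx5 (2.97). Syne1 varied most among these, between 4.87 and 6.47 at E14.5 and between 8.13 and 9.45 at E18.5, with no overlap. The arrays hold 59 transcript clusters for this very long gene, 58 of which had a positive difference, with a median of 1.19. Second clusters of Kctd12 and Ndrg1 had smaller differences of 0.69 and 1.46. Astx5 belongs to a family of near-identical genes, so its signal may be shared.

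Most receptor genes tested for GABA and glutamate rose, against 15.6% of all genes. Of 18 genes tested for GABA and glycine receptors and chloride transport 13 rose, 5 did not pass and 0 fell by limma, with a median of 1.41. At an unadjusted p under 0.05 a single gene was lower, the GABA-A subunit Gabrd (-0.29, unadjusted p 0.024, adjusted p 0.066). Gabra5, a GABA-A receptor subunit, rose from 5.76, 5.68 and 5.66 to 8.61, 8.80 and 8.52 (7.70-fold, adjusted p 3.5e-06), the subunit Gabrg1 by 3.20, the metabotropic subunit Gabbr2 by 1.95, the GABA transporter Slc6a11 by 1.89 and Gabra2 by 1.82. Of 28 glutamate receptor genes tested 20 rose, 8 did not pass and 0 fell by limma, with a median of 0.94 and 0 lower also at an unadjusted p under 0.05. Grm5, a metabotropic receptor, rose from 6.11, 5.54 and 5.43 to 8.59, 8.62 and 8.65 (7.61-fold, adjusted p 8.6e-08), the NMDA receptor subunit Grin3a by 2.67, the AMPA receptor accessory subunit Cacng3 by 2.25, Grm7 by 2.10, the AMPA receptor subunit Gria4 by 1.87 and Grm3 by 1.58. Grik5 (-0.08) and Grin2c (-0.08) did not pass. A second cluster of Grm7 had a difference of 0.86.

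Synaptic genes that passed were mostly higher at E18.5, while 15.6% of all genes were higher and 18.3% lower. Of 32 vesicle and release genes 18 rose and 0 fell by limma (median 0.62; 0 lower at an unadjusted p under 0.05), among them the synapsin Syn2, from 5.16, 5.24 and 5.28 to 8.40, 8.51 and 7.82 (8.08-fold, adjusted p 3.7e-08), beta-synuclein Sncb (2.14), the calcium sensor Syt1 (1.89), the active zone protein Pclo (1.68) and the SNARE Stx1a (1.30). Snap25, also a SNARE, stood at 9.14 ± 0.10 and 9.11 ± 0.10 and did not pass. Of 31 synaptic organisers 22 rose and 1 fell (median 0.98). The adhesion protein Lrrtm3 rose by 2.63, Cntnap2 by 2.40, the secreted Cbln4 by 2.34 and Cntnap5a by 1.98, while the phosphatase Ptprs fell by 0.89. Neuroligins Nlgn2 (-0.05) and Nlgn3 (-0.06) did not pass. Of 24 postsynaptic genes 8 rose and 0 fell by limma (median 0.37; 1 lower at an unadjusted p under 0.05), with the scaffold proteins Dlgap1 (1.78) and Dlg2 (1.57) and the kinases Camk2b (1.69), Camk4 (1.56) and Camk2d (1.36). For Camk4 a second, dimmer transcript cluster had a difference of -0.45.

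Ion channels rose in part, against 15.6% of all genes. Of 33 potassium channel genes 21 rose and 1 fell (median 0.58), with Kcnd2, an A-type channel, rising from 6.91, 6.91 and 6.77 to 9.69, 9.46 and 9.52 (6.47-fold, adjusted p 9.0e-09), Kcna4 by 2.12, Kcnip4, a partner of Kcnd2, by 1.65 and the calcium-activated Kcnma1 by 1.45. The calcium-activated Kcnn1 fell by 0.69. Of 24 sodium, calcium and HCN channel genes 12 rose and 1 fell (median 0.69). The sodium channel subunits Scn3b (1.56) and Scn2a (1.53), the pacemaker channel Hcn3 (1.43) and the calcium channel subunits Cacnb2 (1.38) and Cacna1e (1.32) rose, and Cacna2d1 fell by 1.64. Dimmer second clusters of Kcnma1 (-0.19), Cacnb2 (-0.14) and Kcna4 (0.20) did not share the rise of the brighter ones. The T-type channel genes Cacna1g (0.04) and Cacna1h (0.03), known for the burst firing of thalamic neurons, did not pass. Of 21 cytoskeletal genes 8 rose and 1 fell (median 0.36), with the neurofilament Nefl (1.81) and the microtubule-associated Mapt (0.69) higher, while Ina (0.04) and Map2 (-0.03) did not pass.

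Most cadherins rose, while guidance genes that passed lay on both sides. The shares of all genes were 15.6% higher and 18.3% lower. Of 24 cadherins and protocadherins 18 rose, 6 did not pass and 0 fell by limma, with a median of 1.42 and 0 lower at an unadjusted p under 0.05. The largest rises were those of Pcdh17 (2.47), Pcdh18 (1.96), Pcdh19 (1.95), Cdh12 (1.85), Cdh6 (1.82) and Cdh7 (1.77), and Cdh22 (0.11) and Pcdh8 (-0.09) did not pass. Of 55 axon guidance genes 14 rose and 13 fell, with a median of 0.04. Lower were the ligand Slit2, which stood at 9.07, 9.41 and 9.33 at E14.5 and at 7.03, 7.01 and 6.87 at E18.5 (4.92-fold, adjusted p 8.6e-08), the netrin receptor Unc5c (-1.92), Flrt3 (-1.85), the semaphorin receptor Nrp2 (-1.79), the plexin Plxna2 (-1.35) and the netrin-like Ntng2 (-1.28). Higher were the contactins Cntn6 (2.09) and Cntn4 (2.07), the ephrin receptor Epha5 (1.97), Flrt2 (1.88), Flrt1 (1.5) and the netrin-G ligand Lrrc4c (1.5). The FLRT family thus split, with 2 members higher and Flrt3 lower, in each scaling tried. Slit3 (-0.04), Ntn1 (0.04) and Plxnd1 (-0.01) did not pass.

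Of 26 chromatin and DNA methylation genes 14 fell and 4 rose (median -0.43, and 0.21 as deposited). As deposited 9 were higher and 8 lower. The shares of all genes, for this and the next counts, were 18.3% lower and 15.6% higher. Ezh2, the methyltransferase of Polycomb complex 2, fell from 9.52, 9.61 and 9.45 to 7.66, 7.77 and 7.70 (3.53-fold, adjusted p 2.1e-07), the high-mobility group gene Hmgb2 by 1.69, the DNA demethylase Tet2 by 1.62, the BAF subunit Dpf3 by 1.24 and the remodeller Chd4 by 1.21, while its relative Chd5 rose by 1.62. Of 20 splicing and RNA-binding regulators 7 rose and 3 fell (median 0.00). The splicing factor Rbfox1 rose from 7.33, 6.79 and 6.88 to 9.30, 9.11 and 9.15 (4.55-fold, adjusted p 6.4e-07), Khdrbs3 by 1.10, Mbnl1 by 0.82 and Celf4 by 0.74, and Celf3 fell by 1.41. Nova2 (-0.10), Rbfox3 (0.04) and the repressor of neuronal genes Rest (-0.04) did not pass. Of 7 regulators of developmental timing tested 2 fell, Igf2bp3, an mRNA-binding protein, by 2.14 and Lin28b, which blocks let-7 maturation, by 0.82, and 5 did not pass.

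Paralog pairs in which a form of progenitors or young neurons is known to give way to a later form were set side by side, 10 of the 12 listed pairs having both members tested. The BAF ATPases moved apart, Smarca4 falling from 10.45 ± 0.09 to 8.91 ± 0.04 and Smarca2 rising from 8.20 ± 0.13 to 8.99 ± 0.22 (adjusted p 7.6e-07 and 0.0050). The Polycomb enzymes did so too, Ezh2 falling as above and Ezh1 rising from 6.57 ± 0.06 to 7.16 ± 0.05 (adjusted p 0.0016). The chloride exporter Slc12a5, which is known for making GABA inhibitory as neurons mature, rose from 6.21, 5.76 and 6.10 to 7.72, 7.40 and 7.41 (2.80-fold, adjusted p 1.3e-05), and the importer Slc12a2 did not pass (0.33, interval -0.11 to 0.76). In the receptor pairs the earlier form rose: Grin2b by 1.23 and Glra2 by 1.57, while Grin2a (0.27) and Glra1 (0.07) did not pass. Both later forms stood low at E14.5 and E18.5, Grin2a at 5.55 and 5.81 and Glra1 at 5.13 and 5.20. Signals in the lower part of the array range can hide a change. A dimmer second cluster of Grin2b had a difference of 0.04. Ptbp1 fell by 0.65 and Ptbp2 did not pass (-0.19). The earlier forms Ss18 (-0.45) and Dnmt3b (-0.40) fell after quantile normalization, but were at 0.20 and 0.23 as deposited, and their later partners Ss18l1 (0.05) and Dnmt3a (-0.09) did not pass. In the PHD-finger pair it was the later form, Dpf1, that fell (-0.64, and 0.01 as deposited), while the earlier Phf10 did not pass (0.12). The calls of Dnmt3b and Dpf1 were each lost in 3 of the 6 fits without 1 green array (adjusted p up to 0.084 and 0.092). The sodium channels Scn3a (-0.30) and Scn1a (-0.31) did not pass. In the remaining listed pairs only 1 member was tested, and these members, Actl6b (0.61) and Gabra3 (1.40), rose.

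**Figure D3:**
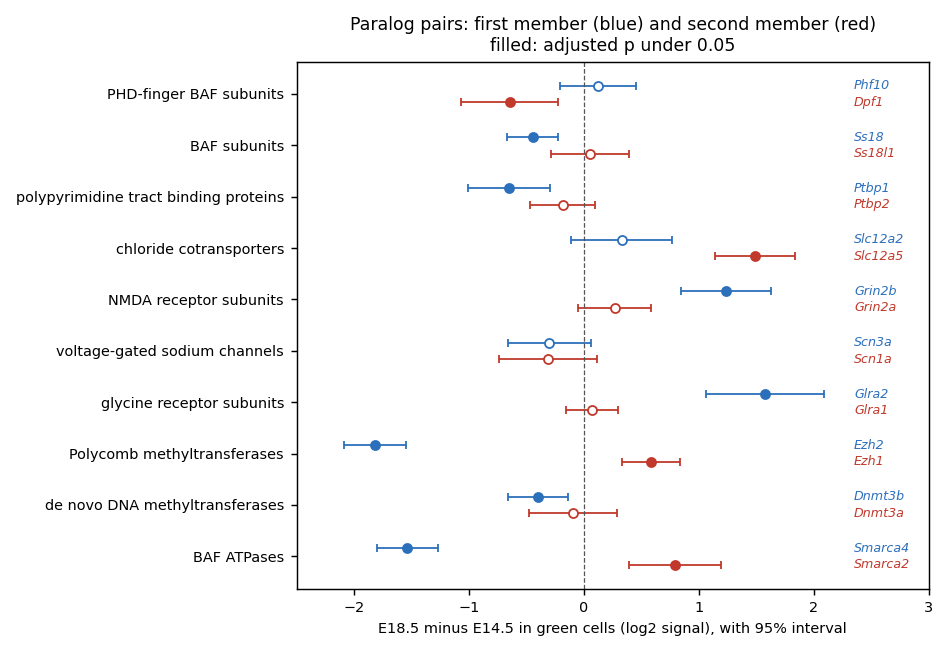
Horizontal axis: difference between E18.5 and E14.5 green cells (log2 signal) for both members of 10 paralog pairs, with 95% intervals; filled points passed an adjusted p of 0.05. Smarca4 and Ezh2 lie below 0 and their partners Smarca2 and Ezh1 above it, while in the NMDA and glycine receptor pairs the blue, earlier form lies higher.

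Signalling genes that passed included rises and falls, while 15.6% of all genes were higher and 18.3% lower. Of 20 neurotrophin and growth factor genes 10 fell and 6 rose (median -0.44, and 0.20 as deposited). Igfbp5, a binding protein of insulin-like growth factors, rose from 4.87, 4.96 and 4.79 to 7.23, 7.24 and 7.36 (5.28-fold, adjusted p 3.0e-08), the BDNF receptor Ntrk2 by 1.64 and the neuregulin Nrg3 by 1.62, while Fgfr2 (-1.59), the neuregulin receptor Erbb4 (-1.51), Igf1r (-1.14) and Nrg1 (-1.0) fell. Of 29 Wnt pathway genes 10 fell and 3 rose (median -0.08, and 0.54 as deposited), with the target and inhibitor Axin2 (-1.27) and the coreceptor Lrp6 (-1.10) falling beside Rspo3, and the secreted inhibitor Sfrp2 (0.93) and the receptor Fzd10 (0.86) rising. Of 14 retinoic acid genes 3 rose and 3 fell, shares near the 15.6% and 18.3% of all genes, with the carrier Rbp4 (0.85) higher and the binding protein Crabp1 (-0.90) lower.

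Of 20 genes for monoamine synthesis, transport and receptors 11 rose and 0 fell by limma, against 15.6% and 18.3% of all genes. Their median was 0.71, and 0 were lower at an unadjusted p under 0.05. Htr1b, a serotonin receptor of thalamocortical terminals, rose from 5.26 ± 0.26 to 7.02 ± 0.08 (adjusted p 1.4e-06), the monoamine oxidase Maoa by 1.74, the dopamine receptor Drd2 by 1.68, and the serotonin receptors Htr2c by 1.46 and Htr5a by 1.29. Of 20 immediate early and stress genes 2 fell and 0 rose by limma, no larger a share than the 18.3% and 15.6% of all genes. At an unadjusted p under 0.05 also 0 were higher. The 2 that fell were the antiproliferative Btg2 (-1.69) and the phosphatase Dusp1 (-1.10). Arc (-0.01) and Fosb (-0.05) did not pass. Of 9 class I antigen presentation genes tested 1 rose and 1 fell, against 15.6% and 18.3% of all genes. B2m, the light chain, rose from 6.63 ± 0.10 to 8.29 ± 0.21 (adjusted p 2.2e-04). Psmb9 fell by 0.31 (0.30 higher as deposited), a call lost in each of the 6 fits without 1 green array (adjusted p up to 0.16). The heavy chain H2-K1 (-0.25) and the peptide transporter Tap1 (-0.22) did not pass.

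Red cells, the descendants of cells in which Cre had been active, were measured at the same stages, and their change was set against that of green cells to find what differed. Of the 2591 genes higher at E18.5 in green cells 1576 were also called higher and 16 called lower in red cells, and of the 3052 lower genes 1849 were also called lower and 13 called higher. Both comparisons share the difference of stage. The day of tamoxifen also bears on which cells became red, and it was E9.5 for E14.5 and E9 for E18.5. Double-labelled cells were a separate group at E18.5 only. A difference between green and red cells thus cannot be told apart from a change in what was labelled and sorted as red. Same-numbered green and red arrays of a stage were treated as independent, and whether they share embryos was not tested. In red cells 12.7% of genes were higher and 14.9% lower. The change itself differed between green and red cells for 198 genes (1.19%), by limma's test of the difference, 94 in the positive (0.565%) and 104 in the negative direction (0.625%). That number rests on few arrays: it was 100 without E14.5 green replicate 2, 115 without E14.5 green replicate 3, 128 without either E18.5 green replicate 1 or E14.5 red replicate 2, and 470 without the 2 arrays of narrow range, E18.5 red replicate 1 and E18.5 double-labelled replicate 1.

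The largest positive difference was that of Calb2, which rose by 3.72 in green and by 0.77 in red cells (difference 2.95, adjusted p 1.1e-04). Ripor2, Mast4, Cacng3, Necab1 and Kitl followed, with differences of 2.32, 2.28, 2.24, 2.06 and 1.96. At E14.5 the means of these 6 genes were lower in green than in red cells, as for Kitl, which encodes stem cell factor, at 7.74 ± 0.62 against 9.72 ± 0.13, and for Cacng3 at 6.50 ± 0.21 against 7.44 ± 0.25. At E18.5 Kitl stood at 10.34 ± 0.08 and 10.35 ± 0.38 and Cacng3 at 8.76 ± 0.15 and 7.46 ± 0.33, so that green cells reached the red level for the former and passed it for the latter. E14.5 green replicate 1 was the highest of its group for all 6 genes.

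The largest negative differences were those of Olig3 (-2.89), Aldh1a1 (-2.60), Fabp7 (-2.55), Nhlh1 (-2.45), Pou3f2 (-2.34) and Slc6a3 (-2.23). The levels behind them formed different patterns. Olig3, Nhlh1 and Pou3f2 were at 9.23 ± 0.24, 7.76 ± 0.44 and 9.11 ± 0.12 in green cells of E14.5 and already at 6.13 ± 0.36, 5.22 ± 0.35 and 7.31 ± 0.19 in red cells. By their means at E18.5, green and red cells ended near each other for Olig3 and Nhlh1, while Pou3f2 ended lower in green cells. Slc6a3, the dopamine transporter, stood at 5.55 ± 0.10 and 5.64 ± 0.01 in green cells, where it did not pass, and rose from 5.38 ± 0.23 to 7.70 ± 0.25 in red cells. The retinaldehyde dehydrogenase Aldh1a1 likewise stood at 5.82 ± 0.11 and 6.22 ± 0.26 in green cells and rose from 5.84 ± 0.14 to 8.85 ± 0.64 in red cells. Fabp7 fell in green cells and was at 8.24 ± 0.52 and 9.57 ± 0.46 in red cells.

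Of the 32 cell cycle genes 9 differed in this test, with Mki67 at 5.75 ± 0.16 and 5.42 ± 0.35 and Top2a at 5.10 ± 0.15 and 5.32 ± 0.16 in red cells, both below the green level of E14.5. Ezh2 fell by 1.82 in both populations, and the difference between them was 0.00 (95% interval -0.38 to 0.38). Of 55 guidance genes 7 differed, with Slit2 at 6.92 ± 0.14 and 6.80 ± 0.28 in red cells.

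**Figure D4:**
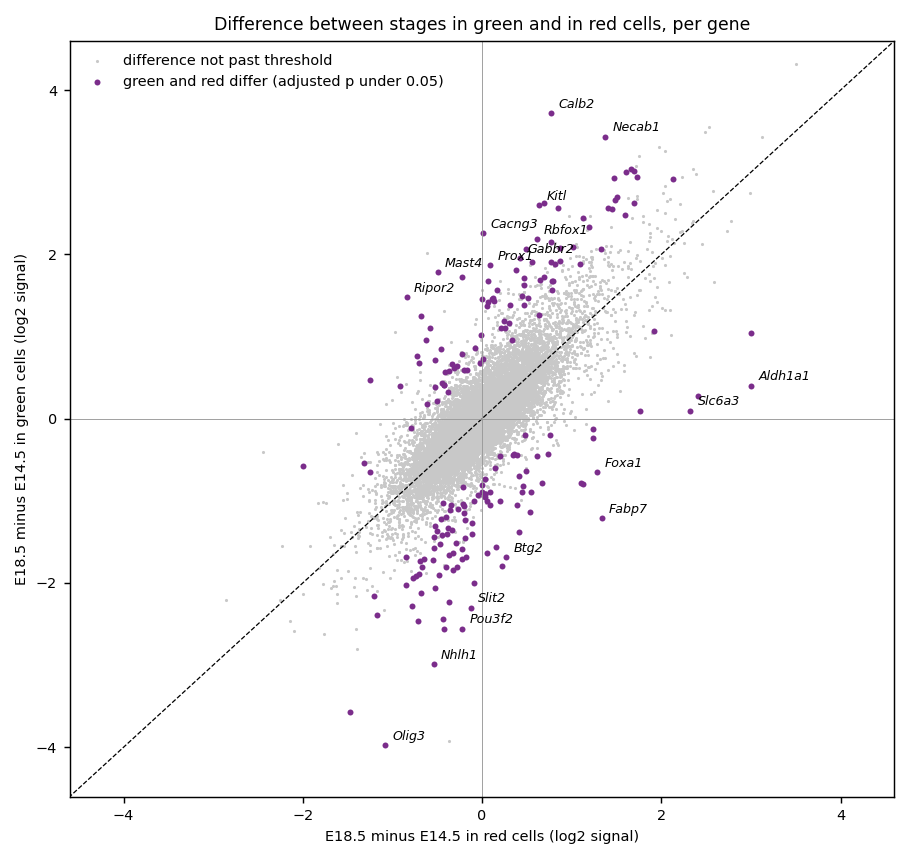
Each point is a gene, placed by its difference between stages in red cells (horizontal) and in green cells (vertical), both in log2 signal; purple points differ between the populations by limma's test, and the dashed line marks equal change. Calb2, Cacng3 and Ripor2 lie above the line, Olig3, Nhlh1 and Pou3f2 below it, and Slc6a3 and Aldh1a1 to its right.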

How the data were processed

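Sorted cells of embryonic mouse thalamus were measured on Affymetrix gene arrays, 15 in 5 groups of 3 biological replicates. Per the labels, a whole-transcriptome amplification kit (Nugen Ovation Pico) turned RNA into cDNA. The deposited values are log2 signals for 33794 transcript clusters, which the authors made with Affymetrix Expression Console per the submitters' processing notes; its version, algorithm and genome build are not given in the sources used here. GEO's platform annotation, matched to RefSeq (GRCm38.p6), gave 23521 clusters 1 gene, 1814 several and 8459 none; 23328 matched. All 15 arrays were quantile-normalized together, the cluster with the highest mean was taken for each of 22180 genes, and the lowest 25% were left out, leaving 16635. Group means were fitted with limma 3.58.1 (R 4.3.3) on all arrays, with empirical Bayes, two-sided tests and Benjamini-Hochberg adjustment over all genes tested (adjusted p under 0.05). Intervals are 95%. Fits were tested on simulated data. The members, the 36 gene lists and the paralog pairs were chosen with earlier results of these data known. Named were Gbx2, the 15 largest rises and falls without overlap, the pair members tested and the 6 largest differences from red cells in each direction. Predicted genes, clones, small RNAs, receptor segments, histone cluster genes and pseudogenes were left out of the largest changes. From the markers of cell types and from lists with at most 12 tested, examples are named and not every member. From longer lists, examples come from the 6 largest rises, the 6 largest falls and the 3 differences nearest 0. Alternatives were 24 in number, in scaling, filter, samples fitted, weights, block and single arrays left out.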

Additional observations from a re-analysis of the deposited data

Results flagged for a closer look

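Every gene given here was picked out because its change from E14.5 to E18.5 differed between green and red cells by limma's test of that difference, at an adjusted p between 1.1e-04 and 0.049. Values are the green change minus the red change in log2 signal. Among transcription factors and RNA regulators the difference was positive for Prox1 (1.77), Rbfox1 (1.58) and Khdrbs3 (1.68) and negative for Olig3 (-2.89), Nhlh1 (-2.45), Pou3f2 (-2.34), Barhl2 (-1.53), Sp9 (-0.95), Pantr1 (-2.10) and Hmgb2 (-1.51). Cell cycle and progenitor genes were on the negative side, with Top2a (-2.02), Mki67 (-1.51), Cdk1 (-1.18), Ccnd2 (-1.22), Cenpe (-0.91), Prom1 (-0.96) and Fabp7 (-2.55). Btg2 (-1.96), listed with the immediate early and stress genes, was negative as well. Receptors, channels and synaptic genes with a positive difference were Cacng3 (2.24), Gabbr2 (1.53), Gabra2 (1.44), Grm5 (1.46), Drd2 (1.62), Syn2 (1.32), Pclo (0.89), Dlg2 (0.78), Lrrtm3 (0.93) and Kcnd2 (1.19), and those with a negative difference Kcnn1 (-1.10), Cacna2d1 (-1.31) and Slc6a3 (-2.23). Guidance and growth factor genes were on both sides, with Cntn4 (1.58), Flrt1 (1.05), Flrt2 (0.79), Nrg3 (1.15) and Kitl (1.96) positive and Slit2 (-2.18), Unc5c (-1.18) and Fgfr2 (-1.36) negative. The others were Ablim3 (1.39), Calb2 (2.95), Far2 (1.37), Mast4 (2.28), Necab1 (2.06) and Ripor2 (2.32) on the positive side and Abcd2 (-2.0), Aldh1a1 (-2.60), Jam2 (-2.14), Prkd1 (-1.74) and Thsd7a (-1.21) on the negative side. The number of arrays is 3 in each of the 4 groups, and the count of such genes moved with single arrays, as given under the comparison of both populations.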

How the results depend on the processing

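The stages differed in overall level as deposited, and without joint normalization the picture turned: 12188 genes passed, 11777 higher and 411 lower, with 3147 at least 2-fold higher and 85 at least 2-fold lower, and 96.6% of calls were higher against 45.9%. Of the 5643 genes called, 307 were then called in the opposite direction. Among the 252 genes named, 29 changed sign as deposited with a call on either side: Aif1 0.56, Arc 0.68, Cux1 0.26, Dnmt3a 0.57, Dnmt3b 0.23, Dpf1 0.0050, Elavl4 0.67, Flt1 0.54, Fosb 0.57, Gabrd 0.35, Gfap 0.57, Grik5 0.59, Grin2c 0.51, Kdr 0.29, Map2 0.59, Mcm2 0.51, Nlgn2 0.60, Nlgn3 0.61, Nova2 0.57, Pcdh8 0.59, Pdgfrb 0.49, Pecam1 0.54, Plxnd1 0.54, Psmb9 0.30, Rest 0.58, Slit3 0.62, Snap25 0.63, Ss18 0.20 and Tap1 0.44. As deposited, 15 more named genes kept their direction and did not pass. The cause was not tested. With each array centred on its median, Cux1, Dcx, Fabp7, Fcer1g, Gap43, Glul, Kcnj8, Mllt11, Scg3 and Slc32a1 no longer passed, and 4790 genes did. The count was 8394 in a fit of the 6 green arrays alone, 8388 with these also normalized alone, 6801 with no filter and 4096 with the lowest 50% left out. Without the 2 narrow-range arrays, neither of them green, it was 7980. Which genes did not pass in green cells thus depends in part on the spread of arrays outside the green groups. Leaving out 1 green array gave 4305 to 4685 genes, 2033 to 2191 higher and 2272 to 2494 lower, with 638 to 690 at least 2-fold higher and 391 to 453 at least 2-fold lower; 170 of the 185 named genes past the threshold passed in all 6 such fits. For the difference between green and red cells, leaving out 1 array gave 100 to 241 genes, and leaving out the 2 narrow-range arrays 470. With the replicate number as a block 5977 genes passed, 5529 of them among the 5643, and Psmb9 was the only named gene lost. Same-numbered samples of the stages had deviations correlated at 0.051, -0.023 and 0.018, so the numbers were not taken to pair them. Within a stage, pairing of same-numbered green and red arrays was not tested. The sex-linked Eif2s3y stood at 7.02, 8.14 and 7.66 in green and at 6.61, 8.39 and 7.66 in red arrays of E14.5. At E18.5 it stood at 7.27, 6.68 and 6.98 in green and at 7.41, 6.86 and 6.75 in red arrays. With the replicate block 233 genes differed between green and red cells, against 198. That block also ties same-numbered arrays across the stages, so it is no test of pairing within a stage. Each stage has 3 arrays, and signals near the bottom of the array range understate folds.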
